A study of Mus musculus with 19 samples.

Results

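The genes described here are 10 mouse genes that read or remove N6-methyladenosine (m6A), the most common internal methyl mark of messenger RNA. They were chosen by name. The readers are the YTH genes Ythdf1, Ythdf2, Ythdf3, Ythdc1 and Ythdc2 and the insulin-like growth factor 2 mRNA-binding genes Igf2bp1, Igf2bp2 and Igf2bp3, and the erasers are the demethylase genes Fto and Alkbh5. All 10 were found in the annotation, among 54750 annotated genes with a target in the short-read tables, and 9 of them passed the filter on low counts among the 18687 genes tested between genotypes.

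The cells were neural progenitor cells cultured from the embryonic cortex of Mettl14 conditional knockout (KO) and wild-type (WT) mice. METTL14 is the RNA-binding partner of METTL3 in the m6A writer complex. All cells were grown with 20 ng/ml FGF2 and 20 ng/ml EGF. In 4 KO and 4 WT ladder libraries, messenger RNA was separated by length into 7 bands and sequenced as read pairs of 75 bp, and 3 WT standard libraries were sequenced as single reads of 50 bp with no length separation. Long reads from a nanopore device, of native RNA in one set and of direct cDNA in the other, were assembled for each genotype, with 2 replicates in each assembly. The driver of the Cre recombinase and the age of the embryos are not given in the sources used here. Nothing in the labels says that replicates came from separate cultures or embryos, so p-values measure the spread between these samples, which may be technical.

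YTH proteins hold the methylated adenosine in an aromatic pocket of their YTH domain. YTHDF1, YTHDF2 and YTHDF3 are cytoplasmic and are best known for shortening the life of methylated messages, with YTHDF2 recruiting the CCR4-NOT deadenylase. YTHDC1 is nuclear and acts on splicing and export, and YTHDC2 is an RNA helicase known from meiosis in the germ line. IGF2BP proteins bind messages through KH domains, have been linked to the stability of methylated messages and are expressed most strongly in embryonic tissues. FTO and ALKBH5 are iron- and oxoglutarate-dependent dioxygenases that take the methyl group off.

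The sequences below are shown because inclusion of these exons is the transcript feature that separated genotypes or library types in Ythdf3 and Ythdc1. Both exons are coding, both have a length that is a multiple of 3, and capitals mark the alternative exon between 12 bases of each neighbouring exon, 5′ to 3′, from the GENCODE M21 transcripts (GRCm38). The Ythdf3 cassette exon has 33 bases and lies at chr3:16203187-16203219 on the plus strand. It adds 11 codons in Ythdf3-202 and is skipped in Ythdf3-201, Ythdf3-203 and Ythdf3-204. The Ythdc1 cassette exon has 54 bases and lies at chr5:86820633-86820686 on the plus strand. It adds 18 codons in Ythdc1-201 and Ythdc1-203 and is skipped in Ythdc1-202, Ythdc1-207 and Ythdc1-208.
Ythdf3-202, exon included: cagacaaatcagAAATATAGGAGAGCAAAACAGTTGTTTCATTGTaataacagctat
Ythdf3-201, exon skipped: cagacaaatcagaataacagctat
Ythdc1-203, exon included: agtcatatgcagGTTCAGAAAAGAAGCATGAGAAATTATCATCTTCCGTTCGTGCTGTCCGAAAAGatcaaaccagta
Ythdc1-202, exon skipped: agtcatatgcagatcaaaccagta

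The messages of these genes can carry the mark themselves, so the letters of the commonest methylated core, GGACT, were counted on the sense strand of 1 coding transcript per gene, the one with the highest mean ladder count. All 10 transcripts held GGACT at least once, as did 91.1% of the 14790 coding transcripts scanned. The motif lay within 200 bases of the stop codon in Ythdf2-203, Ythdc2-201, Fto-201 and Alkbh5-201, against 39.9% of all transcripts scanned. Per kilobase, the count ran from 0.203 in Ythdf3-202 to 1.75 in Alkbh5-201, around a median of 1.05 over all transcripts scanned. The windows nearest to the stop codon are shown for Ythdf2-203 (chr4:132186831-132186857, minus strand, 3′ UTR), Fto-201 (chr8:91666291-91666317, plus strand, coding) and Alkbh5-201 (chr11:60554422-60554448, plus strand, 3′ UTR), with the motif in capitals. These are matches of letters, and no methylation was measured in the files used here.
Ythdf2-203, 82 bases after the start of the stop codon: caagaaaattaGGACTttttttcttaa
Fto-201, 129 bases before the start of the stop codon: ccgagtcgtccGGACTttaccagtaca
Alkbh5-201, 22 bases after the start of the stop codon: gtgccctcttgGGACTctggctaatcc

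The deposited estimated counts summed to 104900000 to 118198000 per KO ladder library, to 103752000 to 126922000 per WT ladder library and to 12084500 to 13987900 per WT standard library. Mettl14 averaged 7.95 ± 0.945 CPM (counts scaled to the library size) in KO and 29.0 ± 4.23 CPM in WT ladder libraries (SD, n = 4 each), a log2 fold change of -1.87. The edgeR quasi-likelihood test called 53.6% of all tested genes between genotypes at an adjusted p of 0.05, 26.4% higher and 27.2% lower in KO. Other things moved with genotype. Ribosomal RNA took 2.59% to 3.10% of counts in KO and 4.63% to 9.45% in WT ladder libraries. The Y-linked gene Ddx3y averaged 4.39 CPM in KO and 0.0126 CPM in WT ladder libraries. Xist, the X-inactivation RNA of female cells, was 44.9 to 71.1 CPM in KO and 138 to 210 CPM in WT ladder libraries, so every library held it, and genotype and the sex makeup of the libraries cannot be told apart. The summed level of 8 oligodendrocyte lineage markers was 89.0 to 104 CPM in KO and 225 to 316 CPM in WT, with 6 of 8 tested markers lower and 1 higher. The sum of 8 meningeal fibroblast markers was 7.78 to 8.997 CPM in KO and 0.786 to 1.04 CPM in WT, with 5 of 6 tested markers higher. The sum of 6 astrocyte markers was 630 to 716 CPM in KO and 544 to 884 CPM in WT, with 5 higher and 1 lower. The sum of 9 neuron markers was 249 to 348 CPM in KO and 270 to 397 CPM in WT, with 6 of 7 tested lower. The sum of 7 endothelial and mural markers was 7.18 to 8.19 CPM in KO and 5.21 to 6.80 CPM in WT, with 4 of 5 tested higher and 1 lower. The sum of 7 microglia markers was 1.67 to 2.31 CPM in KO and 1.03 to 1.39 CPM in WT, with Cx3cr1, Aif1, Tmem119, Itgam and Ptprc under 0.1 CPM in KO. The sum of 11 neural progenitor markers was 6128 to 7044 CPM in KO and 8573 to 9053 CPM in WT, with Nes higher, Vim, Fabp7 and Prom1 lower, and 7, Sox2 and Pax6 among them, not past the threshold. The part of these differences in the results below was not tested, and fewer cells of a type and less RNA per cell cannot be told apart in bulk libraries.

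Between genotypes, 7 of the 9 tested members were called, a share to be read against the 53.6% of all genes. Ythdf1, Ythdf2 and Ythdf3 were higher in KO, while Ythdc1, Ythdc2, Igf2bp2 and Igf2bp3 were lower in KO. Fto and Alkbh5 did not pass the test, and Igf2bp1 was below the filter. The 4 libraries of each genotype did not overlap for 5 of these 9 members, against 49% of all genes tested. The median log2 fold change was -0.02 over the 9 members and -0.03 over all genes tested.

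**Figure D1:**
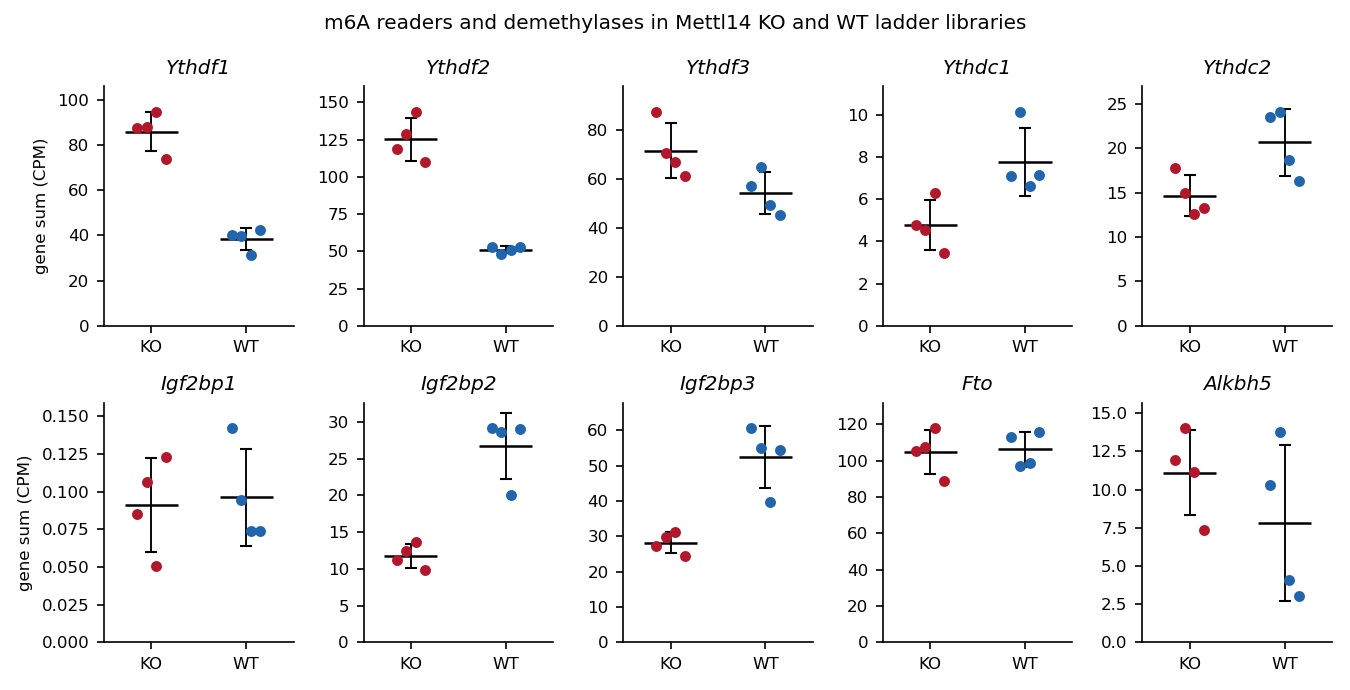
Gene sums in CPM (linear axes from 0, 1 panel per gene) in 4 KO (left, red) and 4 WT (right, blue) ladder libraries. Points are libraries, horizontal lines means and bars SD. Ythdf1 and Ythdf2 lie higher and Ythdc1, Igf2bp2 and Igf2bp3 lower in every KO library than in any WT library, while the groups overlap for Ythdf3, Ythdc2, Igf2bp1, Fto and Alkbh5.

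Ythdf2, the reader best known for deadenylation and decay of its targets, had the largest rise in gene sum among the members. Its gene sum was 118, 129, 144 and 110 CPM in the KO libraries, against 52.7, 48.0, 51.2 and 52.8 CPM in the WT libraries. Every KO library was above every WT library. The log2 fold change was 1.29 (SE 0.108, adjusted p = 1.86e-06, edgeR quasi-likelihood), a ratio of means of 2.45. With length-scaled TPM it rose by 1.09, less than Ythdf1 with 1.15.

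Ythdf1, which is known for promoting translation of its targets and has been studied in neurons, was higher in KO too. It had 87.3, 88.0, 94.7 and 73.7 CPM in KO and 40.0, 39.5, 31.6 and 42.4 CPM in WT. The groups did not overlap, and the log2 fold change was 1.16 (SE 0.122, adjusted p = 1.1e-05, edgeR). Nearly all of it came from 1 coding transcript, Ythdf1-201, which held 96.7% ± 2.77 of the gene sum in KO and 97.6% ± 2.72 in WT (SD, n = 4 each).

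Ythdf3 rose by less, and its groups overlapped. It had 87.7, 70.8, 67.2 and 61.4 CPM in KO, against 57.2, 64.9, 49.4 and 45.5 CPM in WT. The log2 fold change was 0.40 (SE 0.143, adjusted p = 0.0321, edgeR). This call was lost when KO replicate 1 or 2 or WT replicate 3 or 4 was left out, with adjusted p between 0.0574 and 0.0993, and with coding transcripts alone (adjusted p = 0.0605).

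Ythdc1, the nuclear reader, was at a low level in all ladder libraries. It had 4.79, 4.55, 6.31 and 3.44 CPM in KO and 7.11, 10.1, 6.62 and 7.15 CPM in WT, with no overlap. The log2 fold change was -0.70 (SE 0.190, adjusted p = 0.00865, edgeR). The direction depended on which transcripts were summed: with coding transcripts alone it was 1.23 and not past the threshold (adjusted p = 0.0783), and with length-scaled TPM it was -0.41 (adjusted p = 0.171). Most of the gene sum came from a retained-intron transcript described below, and the locus overlaps Gm43055, a lincRNA on the same strand.

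Ythdc2, the helicase reader, had 17.8, 14.96, 12.6 and 13.3 CPM in KO, against 23.5, 24.1, 18.7 and 16.4 CPM in WT. KO replicate 1 lay above WT replicate 4, so the groups overlapped. The log2 fold change was -0.50 (SE 0.149, adjusted p = 0.0152, edgeR).

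Among the IGF2BP genes, Igf2bp2 fell furthest. It had 11.2, 12.4, 13.7 and 9.79 CPM in KO and 29.1, 28.6, 20.0 and 29.1 CPM in WT. Every KO library was below every WT library, with a log2 fold change of -1.18 (SE 0.146, adjusted p = 3.9e-05, edgeR). Igf2bp3 had 27.4, 29.7, 31.2 and 24.3 CPM in KO, against 60.5, 54.9, 39.7 and 54.4 CPM in WT. It also fell with no overlap, by 0.90 on the log2 scale (SE 0.139, adjusted p = 2.24e-04). Igf2bp1 was close to absent from ladder libraries, with 0.0506 to 0.123 CPM in KO and 0.0740 to 0.142 CPM in WT, and was not tested. Igf2bp3 overlaps Malsu1, a coding gene on the opposite strand. The labels do not say that the library kit marked strand, so reads from the overlap cannot be told apart, and the same holds for Fto and its antisense genes Gm3235 and 4831440D22Rik.

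The demethylases did not pass the test. Fto, the more abundant of them in ladder libraries, had 105, 107, 118 and 89.0 CPM in KO and 113, 96.9, 98.8 and 116 CPM in WT. The groups overlapped, and the log2 fold change was -0.02 (SE 0.115, adjusted p = 0.908, edgeR). Alkbh5 had 11.9, 14.0, 11.1 and 7.39 CPM in KO, against 10.3, 13.8, 4.10 and 3.07 CPM in WT, where replicates 3 and 4 were low. Its log2 fold change was 0.51 with an SE of 0.483 (adjusted p = 0.411), too wide to show a change of that size.

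Per length, as the authors' TPM, which corrects counts for transcript length, the order of the members also differed by genotype. In KO ladder libraries the highest were Ythdf2 with 28.3 ± 7.34, Fto with 22.5 ± 5.08 and Ythdf1 with 21.02 ± 4.27 TPM (SD, n = 4). In WT ladder libraries Fto came first with 21.3 ± 2.95 TPM, then Ythdf2 with 12.4 ± 1.41, Igf2bp3 with 9.50 ± 1.88, Ythdf1 with 8.92 ± 1.74 and Ythdf3 with 7.85 ± 1.76 TPM. The ranges of Igf2bp3, Ythdf1 and Ythdf3 overlapped in WT, while Ythdf2 lay above all 3 of them and below Fto in every library. The lowest members in WT were Igf2bp2 with 5.14 ± 1.11, Ythdc2 with 2.06 ± 0.460, Alkbh5 with 1.18 ± 0.718, Ythdc1 with 1.07 ± 0.307 and Igf2bp1 with 0.0369 ± 0.0158 TPM. In KO, Ythdf3 with 11.1 ± 1.84 and Igf2bp3 with 6.10 ± 1.01 TPM followed the leading members, and Igf2bp2 with 2.41 ± 0.618 TPM stood next.

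Transcript by transcript, 23 of the members' 54 annotated transcripts passed the filter and 10 of them were called, 4 higher and 6 lower in KO, against 37.3% of all transcripts tested, 18.2% higher and 19.1% lower. The 4 higher were Ythdf1-201, Ythdf2-203, Ythdf3-201 and Ythdf3-203, all coding. The 6 lower were Igf2bp2-201 and Igf2bp3-201, both coding, and the retained-intron transcripts Igf2bp2-206, Igf2bp3-202, Ythdc1-207 and Ythdc1-209. Igf2bp2-206 averaged 0.259 ± 0.0725 CPM in KO and 1.06 ± 0.163 CPM in WT, with a log2 fold change of -2.02 (SE 0.239, adjusted p = 3.96e-04, edgeR). Igf2bp3-202 averaged 0.785 ± 0.176 CPM in KO and 2.02 ± 0.292 CPM in WT (log2 fold change -1.36, SE 0.204, adjusted p = 0.00133). The call of Ythdc1-209 was lost without KO replicate 2, WT replicate 2 or WT replicate 3, and also with no filter on low counts, with a replicate block and in DESeq2, with adjusted p up to 0.105.

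The makeup of the gene sums was tested for the same members. Transcript usage, tested with diffSpliceDGE and the Simes method, was called for Ythdf2 (adjusted p = 0.0135), Ythdc1 (adjusted p = 0.00333) and Igf2bp3 (adjusted p = 0.0454), which is 3 of the 8 members with at least 2 tested transcripts, against 19.8% of all such genes. None of the 3 was called without KO replicate 4, WT replicate 2 or WT replicate 3, or with no filter on low counts. Ythdc1 also lost its call without KO replicate 3 or WT replicate 4, with adjusted p up to 0.492. Igf2bp3 lost it when any library other than KO replicate 3 was left out, with adjusted p up to 0.316, and with a replicate block (adjusted p = 0.0693). Within the 3 genes, diffSpliceDGE called Ythdf2-201 (adjusted p = 0.0135), Ythdc1-202 (adjusted p = 0.00350) and Igf2bp3-203 (adjusted p = 0.0440). Their mean shares of the gene sum were 0.343%, 39.9% and 3.47% in KO and 1.06%, 10.6% and 1.34% in WT. That test did not call Ythdf2-203, Ythdf2-202 or Ythdc1-207 (adjusted p = 0.182, 0.0704 and 0.350). A separate description, with no p-value, took the genes with at least 2 tested transcripts. It counted those with a transcript whose share of the gene sum moved by 10 percentage points or more with no overlap of libraries. These were Ythdf2, Ythdf3 and Ythdc1, against 17.5% of all genes with at least 2 tested transcripts. Over left-out libraries the count was 2 to 3 members. Ythdc2 and Igf2bp1 had fewer than 2 tested transcripts and were not counted.

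In Ythdf2 most of the rise in estimated counts was assigned to the coding transcript Ythdf2-203. Error in assigning short reads between similar transcripts of a gene was not modelled, here or for the other members. Ythdf2-203 had 70.3%, 73.4%, 60.4% and 70.9% of the gene sum in KO, against 52.0%, 30.8%, 45.9% and 48.2% in WT, a difference of 24.5 points. Its level was 76.4 ± 6.70 CPM in KO and 19.5 ± 4.75 CPM in WT (log2 fold change 1.97, SE 0.193, adjusted p = 1.65e-04, edgeR). The retained-intron transcript Ythdf2-202 held 30.9% ± 5.78 in KO and 54.7% ± 9.10 in WT, and its own level of 34.9 ± 10.7 CPM in KO and 23.8 ± 2.82 CPM in WT did not pass the test (log2 fold change 0.55, SE 0.202, adjusted p = 0.0605), though it did with DESeq2 size factors and in DESeq2 (adjusted p = 0.0433 and 0.0209). Both contain the coding exon of 1584 bases at chr4:132204132-132205715 on the minus strand, which Ythdf2-201 skips. Transcripts with that exon made up 99.7% ± 0.0582 in KO and 98.9% ± 0.288 in WT ladder libraries.

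In Ythdf3 the cassette exon printed above was included less in KO. The share of the including transcript Ythdf3-202 was 49.5%, 48.3%, 48.1% and 47.4% in KO, against 78.3%, 57.5%, 55.7% and 55.1% in WT. Every KO library lay below every WT library. WT replicate 1 stood apart, and without it the difference in the share of the skipping transcript Ythdf3-201 was 7.16 points in place of 12.7. The skipping transcript averaged 31.6 ± 4.32 CPM in KO and 16.9 ± 5.37 CPM in WT (log2 fold change 0.90, SE 0.240, adjusted p = 0.0185, edgeR), a call lost with a replicate block (adjusted p = 0.0520). The including transcript averaged 30.97 ± 5.20 CPM in KO and 28.7 ± 7.19 CPM in WT and did not pass the test (log2 fold change 0.11, SE 0.197, adjusted p = 0.695). The usage test over the 4 transcripts of the gene did not pass either (adjusted p = 0.153), though it did without WT replicate 3 (adjusted p = 0.0418).

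In Ythdc1 the ladder gene sum came mostly from Ythdc1-207, an annotated retained-intron transcript. It held 64.8%, 60.3%, 22.2% and 58.7% in KO and 78.7%, 81.9%, 82.5% and 84.6% in WT. The groups did not overlap, and KO replicate 3 was far below the other KO libraries. Its level was 2.06 ± 0.661 CPM in KO and 5.43 ± 1.07 CPM in WT (log2 fold change -1.39, SE 0.261, adjusted p = 0.00378, edgeR). The coding transcript Ythdc1-202, which skips the cassette exon, held 39.9% ± 24.4 in KO and 10.6% ± 1.91 in WT. Its level of 1.85 ± 1.64 CPM in KO and 0.722 ± 0.283 CPM in WT did not pass the test (log2 fold change 1.36, SE 0.559, adjusted p = 0.0903), though it did in DESeq2 (adjusted p = 0.0310).

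**Figure D2:**
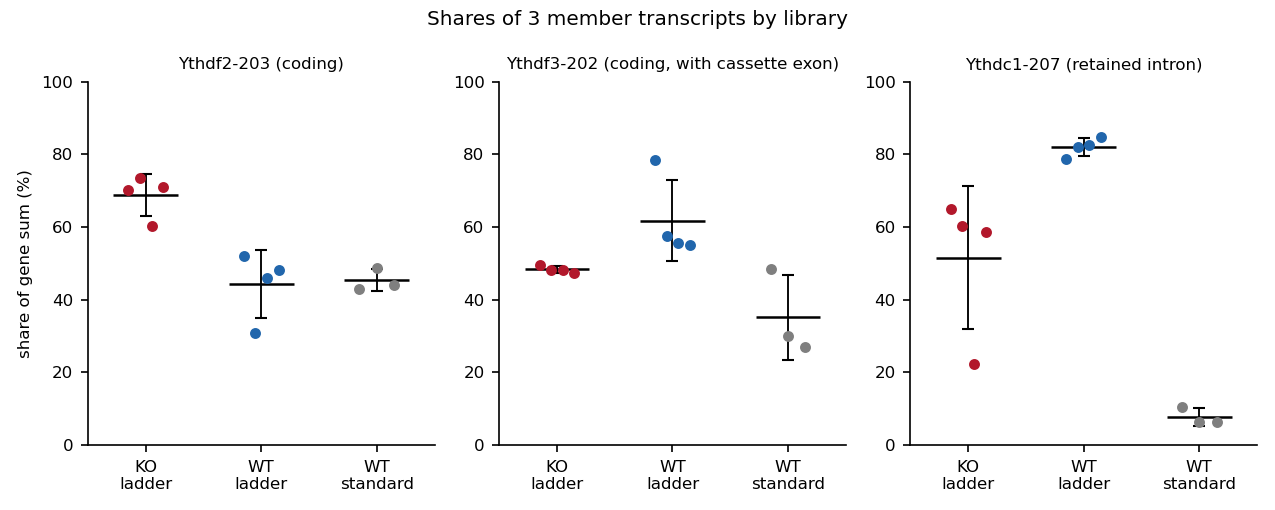
Share of the gene sum in percent (axes 0 to 100) for Ythdf2-203, Ythdf3-202 and Ythdc1-207 in KO ladder (red), WT ladder (blue) and WT standard (grey) libraries. Points are libraries, lines means and bars SD. KO libraries lie above WT ladder libraries for Ythdf2-203 and below them for Ythdf3-202 and Ythdc1-207, and WT standard libraries lie at 6.27% to 10.4% for Ythdc1-207.

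The long-read assemblies give a view of the same genes that does not pass through length bands or short-read assignment. Each holds 1 value per genotype, made from pooled replicates, so differences have no replicate check, and the read depth behind them is unknown. TPM were not scaled between assemblies beyond the deposited values, and ratios of KO over WT were taken for the members alone. For Ythdf1, StringTie gave 143 TPM in KO and 44.8 TPM in WT native RNA, and 8.65 TPM in KO and 1.87 TPM in WT direct cDNA. For Ythdf2 it gave 141 TPM in KO and 38.3 TPM in WT native RNA, and 18.5 TPM in KO and 3.33 TPM in WT direct cDNA. Both were higher in KO in both chemistries, by ratios of 3.18 and 4.61 for Ythdf1 and of 3.69 and 5.56 for Ythdf2. Igf2bp3 had 38.8 TPM in KO and 80.2 TPM in WT native RNA, and 6.37 TPM in KO and 8.46 TPM in WT direct cDNA, lower in KO as in the ladder libraries. Ythdf3 had 54.5 TPM in KO and 43.7 TPM in WT native RNA, and 3.89 TPM in KO and 2.76 TPM in WT direct cDNA.

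For 3 members the long reads went the other way from the ladder libraries. How many of all genes did so was not counted, so this is not shown to be particular to these members. Ythdc1 had 36.6 TPM in KO and 26.0 TPM in WT native RNA, and 7.32 TPM in KO and 2.76 TPM in WT direct cDNA. Ythdc2 had 13.5 TPM in KO and 10.03 TPM in WT native RNA, and 0.778 TPM in KO and 0.546 TPM in WT direct cDNA. Igf2bp2 had 17.0 TPM in KO and 11.02 TPM in WT native RNA, and 1.68 TPM in KO and 1.16 TPM in WT direct cDNA. All 3 were thus higher in KO in both chemistries and lower in KO in the ladder gene sums, and the reason was not tested. For Ythdc1 the assays did not hold the same transcripts. Ythdc1-207 had a mean share of 51.5% in KO and 81.9% in WT ladder sums, and no assembly held its chain. With coding transcripts alone the ladder log2 fold change of Ythdc1 was 1.23, not past the threshold. The native structures of Igf2bp2 were incomplete in both genotypes, with 10 exons in KO and 9 in WT against 16 in the annotated Igf2bp2-201 that direct cDNA held. For the other members of the 3, StringTie native structures were partial in KO alone. Ythdc1 had 14 exons in KO, against 17, 17 and 16 in its WT structures, and Ythdc2 had 17 in KO and 30 in WT. Their native values thus set partial KO structures against longer WT ones.

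The demethylases and Igf2bp1 had few spliced long-read structures. Alkbh5 had 13.4 TPM in KO and 15.9 TPM in WT native RNA, and 2.10 TPM in KO and 1.60 TPM in WT direct cDNA, all as the coding transcript Alkbh5-201. A further single-exon structure over the 3′ end of Alkbh5-201 took 38.2 TPM in KO native RNA. The spliced KO native structure ended before it, while the spliced WT native structure ran to the 3′ end. With structures assigned by exon overlap, which counts the single-exon structure, Alkbh5 had 51.5 TPM in KO and 15.9 TPM in WT native RNA. Fto spliced structures took 0 TPM in KO and 6.79 TPM in WT native RNA, and 3.30 TPM in KO and 3.78 TPM in WT direct cDNA. Where StringTie held a full annotated chain of Fto, it was that of Fto-203, with 8 exons. A separate single-exon structure overlapped the 3′ end of Fto-201. It had 53.1 TPM in KO and 68.0 TPM in WT native RNA, and 7.16 TPM in KO and 7.08 TPM in WT direct cDNA. With structures assigned by exon overlap, Fto had 53.1 TPM in KO and 74.8 TPM in WT native RNA. FLAIR held the full Fto-201 in all 4 assemblies. Igf2bp1 had the full coding chain of 15 exons in direct cDNA, at 0.342 TPM in KO and 0.574 TPM in WT, and no spliced structure in native RNA.

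**Figure D3:**
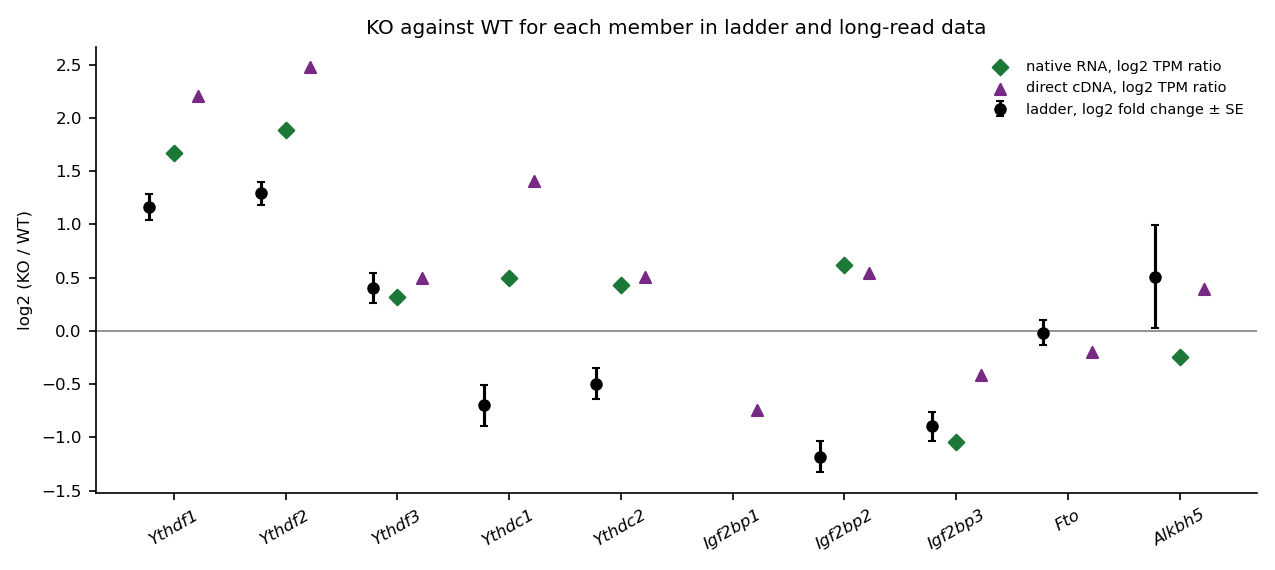
Log2 ratio of KO over WT for each member, from ladder gene sums (black circles, edgeR log2 fold change ± SE, n = 4 each) and from StringTie TPM of pooled native RNA (green diamonds) and direct cDNA (purple triangles). A ratio is left out where the ladder sum was not tested or where a TPM was 0. The 3 assays lie on the same side of 0 for Ythdf1, Ythdf2, Ythdf3 and Igf2bp3. Ladder values lie on the opposite side from both long-read values for Ythdc1, Ythdc2 and Igf2bp2. Alkbh5 lies above 0 in ladder libraries and direct cDNA and below 0 in native RNA, where only spliced structures are counted. With structures assigned by exon overlap, native Alkbh5 was 51.5 TPM in KO and 15.9 TPM in WT.

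The intron chains of the long reads also bear on the transcripts above. Ythdf2-203 led in all 4 StringTie assemblies, with 137 TPM in KO and 36.0 TPM in WT native RNA, and no assembly held a structure with the chain of the retained-intron transcript Ythdf2-202. Structures with the 1584-base coding exon made up 96.8% in KO and 94.0% in WT native RNA. The Ythdf3 cassette exon was included in 30.8% of spliced TPM in KO and 53.0% in WT native RNA, and in 11.2% in KO and 65.9% in WT direct cDNA. Both chemistries thus had the lower inclusion in KO, the direction of the ladder libraries, as pooled values with no error. Ythdf3-201 itself had 37.7 TPM in KO and 20.5 TPM in WT native RNA, and Ythdf3-202 had 16.8 TPM in KO and 23.1 TPM in WT native RNA. For Ythdc1, the cassette exon was in all spliced native structures that spanned it in both genotypes. In direct cDNA, 89.9% of TPM in KO and all of it in WT included the exon. No assembly held the chain of Ythdc1-207, and the including transcript Ythdc1-203 led in direct cDNA with 4.17 TPM in KO and 2.02 TPM in WT.

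**Figure D4:**
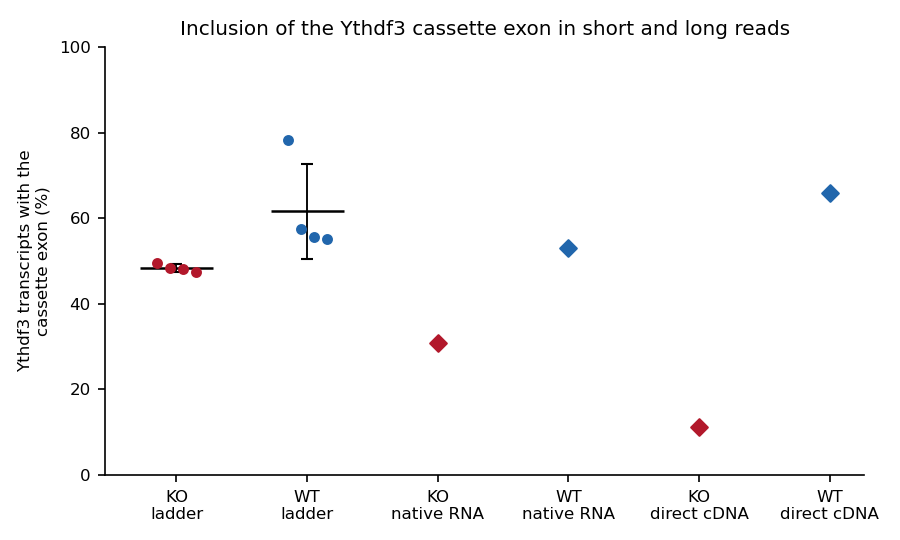
Percent of Ythdf3 transcripts with the 33-base cassette exon in KO and WT ladder libraries (circles, by estimated counts, mean and SD, n = 4 each) and in pooled native RNA and direct cDNA (diamonds, by StringTie TPM, no replicates). KO lies below WT in each of the 3 assays drawn, at 47.4% to 49.5% against 55.1% to 78.3% in ladder libraries. WT standard libraries, which have no KO counterpart and are not drawn, lay at 26.9% to 48.5%.

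WT ladder libraries were then set against WT standard libraries over the 105882 targets that all 11 files share, which asks how the length separation and the different read type bear on the members. This comparison shares its WT ladder libraries with the one between genotypes. All 10 members were called, 9 lower and 1 higher in ladder libraries, against 61.1% of all genes tested, 30.8% higher and 30.3% lower. The libraries of the 2 types did not overlap for any of the 10 members, against 62% of all genes tested. The median log2 fold change was -0.79 over the 10 members and 0.0046 over all genes tested. Length separation, read layout, depth and the target set differ together between the library types and cannot be told apart.

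Members differed widely in size. Igf2bp1 had 0.175, 0.118, 0.0954 and 0.0907 CPM in WT ladder libraries, against 1.98, 36.3 and 34.6 CPM in WT standard libraries. Standard replicate 1 stood far below the other two, and the log2 fold change was -7.66 (SE 0.963, adjusted p = 2.63e-04, edgeR). Alkbh5 had 12.7, 17.3, 5.28 and 3.75 CPM in WT ladder libraries and 150, 192 and 164 CPM in WT standard libraries, a log2 fold change of -4.11 (SE 0.521, adjusted p = 2.78e-04). Ythdc1 had 8.75, 12.7, 8.53 and 8.76 CPM in WT ladder libraries, against 102, 85.7 and 86.0 CPM in WT standard libraries, a log2 fold change of -3.23 (SE 0.178, adjusted p = 5.59e-06). A log2 fold change of -3 or lower was reached by 6.35% of all genes tested.

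**Figure D5:**
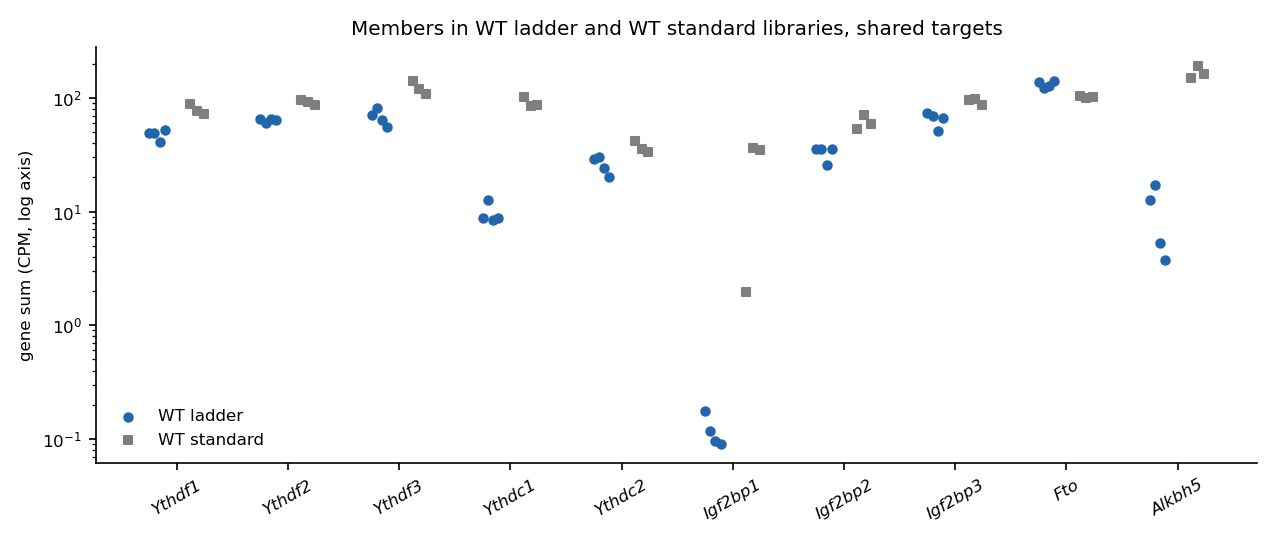
Gene sums over shared targets in CPM (log axis) in 4 WT ladder (blue circles, left) and 3 WT standard (grey squares, right) libraries. Points are libraries. Ladder libraries lie below standard libraries for every member except Fto, and furthest below for Igf2bp1, Alkbh5 and Ythdc1.

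The other members moved by less than 1 on the log2 scale. Igf2bp2, Ythdf3 and Ythdf1 differed by -0.88, -0.86 and -0.73, and Ythdf2, Ythdc2 and Igf2bp3 by -0.53, -0.52 and -0.52. Fto was the exception, with 139, 122, 127 and 142 CPM in WT ladder libraries and 104, 101 and 102 CPM in WT standard libraries (log2 fold change 0.38, SE 0.107, adjusted p = 0.0154, edgeR). The calls for Fto, Ythdc2 and Igf2bp3 were each lost when WT standard replicate 2 was left out, with adjusted p between 0.0520 and 0.0600. Fto also lost its call without WT ladder replicate 1 or 4 (adjusted p = 0.0613 and 0.0509), and Ythdc2 without WT ladder replicate 3 or WT standard replicate 1 (adjusted p = 0.0656 and 0.0788). With a replicate block the calls of Fto and Ythdc2 were lost (adjusted p = 0.104 and 0.0624), that of Ythdc2 was lost with no filter on low counts (adjusted p = 0.0653), and that of Igf2bp3 with length-scaled TPM (adjusted p = 0.105).

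The levels in the standard libraries also give another order of the members per length. Ythdf2 led with 70.6 ± 2.42 TPM (SD, n = 3), above every other member in every library. Fto with 51.2 ± 2.49, Alkbh5 with 50.9 ± 10.2, Ythdc1 with 47.2 ± 1.48, Ythdf3 with 46.6 ± 4.27 and Ythdf1 with 45.1 ± 5.10 TPM followed, Alkbh5 overlapping each of the other four. Igf2bp3 with 38.8 ± 3.70, Igf2bp2 with 29.0 ± 4.70, Ythdc2 with 10.2 ± 0.883 and Igf2bp1 with 9.10 ± 8.68 TPM came last.

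Shares moved with the library type as well. Among members with at least 2 tested transcripts, a shift of 10 points or more with no overlap was found for Ythdf2, Ythdf3 and Ythdc1. This compares with 48.5% of all genes with at least 2 tested transcripts. Ythdc2 and Igf2bp1 were outside this count, though their coding transcripts also shifted with no overlap. Ythdc2-201 held 99.6% ± 0.148 in WT ladder and 88.8% ± 9.19 in WT standard libraries. Igf2bp1-201 held 53.0% ± 19.4 and 95.8% ± 2.68. Ythdc1-203, the coding transcript with the cassette exon, was listed at 0 or next to it in each WT ladder library, against shares of 57.6%, 60.0% and 70.2% in WT standard libraries. Ythdc1-207 held 81.9% ± 2.45 in WT ladder (n = 4) and 7.72% ± 2.36 in WT standard libraries (n = 3, SD). The Ythdc1 cassette exon was accordingly at 0% in all 8 ladder libraries and at 70.9% ± 3.68 in WT standard libraries, while long reads of both genotypes held it in most structures. Ythdf2-201, which skips the 1584-base exon, held 1.06% ± 0.288 in WT ladder and 13.0% ± 2.13 in WT standard libraries. The Ythdf3 cassette exon was included in 61.6% ± 11.1 in WT ladder and 35.1% ± 11.6 in WT standard libraries. Ladder files also hold assembled targets without a deposited structure, which took 11.9% to 13.4% of ladder counts, and whether reads of these genes fell to them was not tested.

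Across the 8 ladder libraries, the genes whose centred log2 CPM lay nearest to each member were found by root mean square distance. They were Rassf2 and Rgmb for Ythdf1 (0.038 and 0.052), Fads3 and Ttc23 for Ythdf2 (0.04998 and 0.063), Bche and Tmx4 for Ythdf3 (0.045 and 0.047), and Vldlr and Gtf2h1 for Ythdc1 (0.106 and 0.111). For Ythdc2 they were Usp45 and Kif5b (0.032 and 0.035), for Igf2bp2 Tmem255a and Abcb4 (0.072 and 0.074), and for Igf2bp3 Stk39 and Ccng1 (0.039 and 0.052). Fto lay nearest to Mapk14 and Klhl5 (0.027 and 0.034). Alkbh5 had the most distant neighbours, Ncoa6 and Angpt1 (0.203 and 0.348).

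Genes that work with the readers and erasers were counted in the same test between genotypes, each list to be read against the 53.6% of all genes. Of 14 tested genes for further proteins whose RNA binding has been proposed to depend on m6A, 4 were higher in KO, 1 was lower and 9 did not pass. G3bp1, a stress granule protein, averaged 262 ± 14.97 CPM in KO and 162 ± 17.3 CPM in WT (log2 fold change 0.70, SE 0.111, adjusted p = 2.71e-04). Elavl1, which codes for the stabilising protein HuR, Hnrnpa2b1, a nuclear ribonucleoprotein, and Eif3b, a subunit of the translation initiation factor eIF3, were also higher, with log2 fold changes of 0.65, 0.58 and 0.52. Fxr1, a paralogue of the fragile X protein gene, was lower at -0.30. Of 15 tested partners in RNA decay and translation, 3 were higher, 4 were lower and 8 did not pass. Cnot7, a catalytic subunit of CCR4-NOT, averaged 25.4 ± 2.70 CPM in KO and 47.4 ± 3.84 CPM in WT (log2 fold change -0.90, SE 0.111, adjusted p = 3.74e-05), while Cnot8, its paralogue, was higher in KO at 0.24. Pop1, a subunit of the RNase P and MRP complexes, was higher at 0.72 and Rpp30, another subunit, lower at -0.52. Upf1 was also higher, at 0.48, and Pabpc1 lower, at -0.33.

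Of 10 tested partners of YTHDC1 in splicing and export, 5 were higher in KO, 1 was lower and 4 did not pass. The largest changes were in Safb2 and Safb, scaffold attachment factors, and Sfpq, a splicing factor, with log2 fold changes of 0.96, 0.59 and 0.64, while Srsf1, an SR splicing factor, was lower at -0.35. Of 8 tested relatives of the erasers, which are the other AlkB dioxygenases and the cap-adjacent m6Am methyltransferase gene Pcif1, only Pcif1 was called, with 96.0 ± 6.34 CPM in KO and 69.2 ± 10.3 CPM in WT (log2 fold change 0.47, SE 0.121, adjusted p = 0.00630). Of 9 tested genes of the LIN28, HMGA and IGF axis that is known beside the IGF2BP genes in embryonic tissue, 4 were higher, 4 were lower and 1 did not pass. H19, the imprinted non-coding RNA that IGF2BP proteins are known to bind, averaged 1.69 ± 0.143 CPM in KO and 61.9 ± 9.82 CPM in WT (log2 fold change -5.19, SE 0.152, adjusted p = 1.55e-09). Hmga1 and Hmga2, chromatin proteins of proliferating embryonic cells, were lower at -2.16 and -0.60, and the receptor genes Igf2r and Igf1r were higher at 1.01 and 0.84. Lin28a and Lin28b were below the filter.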

How the data were processed

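The authors' short-read files hold estimated counts (expected counts) and TPM per target, from kallisto per the submitters' processing notes, which also name STAR 2.5.4b, minimap2 2.17 and the build GRCm38. No source used here says how the counts of the 7 bands were merged. The deposited StringTie assemblies give TPM per structure, and FLAIR gives structures alone, per the file headers. Estimated counts were summed by gene with GENCODE M21, rounded and filtered by filterByExpr, then fitted over all genes with TMM factors by the robust quasi-likelihood method of edgeR 4.0.16 under R 4.3.3, with Benjamini-Hochberg adjusted p and a threshold of 0.05. Transcripts were tested alike, with usage by diffSpliceDGE and Simes. CPM are counts scaled to the TMM library size, and those over shared targets are on another total. The steps were tested on simulated data, where the transcript test recovered changes of a given size less often than the gene test, so a transcript that missed the threshold is not shown to be unchanged. Long-read structures were assigned by shared annotated introns. KO and WT replicate numbers did not pair the samples and were not used as a block. Alternatives were DESeq2 1.42.0, other scalings, filters and sums, a replicate block and leaving out each library. All 10 members and all member transcripts past the threshold were named, with other transcripts mostly among those with at least 10% of a gene sum. From each further list a selection of the genes past the threshold was named, beside counts for the whole list. The members and lists were chosen with earlier results of these data known. Hnrnpg, an older name of Rbmx, was not matched, and protein sequences were not used here.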

Additional observations from a re-analysis of the deposited data

Results flagged for a closer look

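Of 48 groups of 4 ladder libraries listed for a library far from the others, 5 held one, where chance gives about 1 in 20 groups. The 48 include the CPM groups of Igf2bp1, which was below the filter and had no values to examine. The Ythdf3-202 and Ythdf3-201 shares together make up nearly the whole gene sum, so their groups are not independent. KO replicate 3 had 22.2% of the Ythdc1 sum in Ythdc1-207, against 58.7% to 64.8% in the other KO libraries. WT replicate 2 had 10.1 CPM of Ythdc1, against 6.62 to 7.15 CPM in the other WT libraries. WT replicate 3 had 20.0 CPM of Igf2bp2, against 28.6 to 29.1 CPM. WT replicate 1 had 78.3% of the Ythdf3 sum in Ythdf3-202, against 55.1% to 57.5% in the other WT libraries, and 20.1% in Ythdf3-201, against 40.8% to 43.2%. The cause was not tested.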

How the results depend on the processing

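Between genotypes, the count of called members stayed at 5 to 7 under all alternatives run, and Ythdf1, Ythdf2, Ythdc2, Igf2bp2 and Igf2bp3 kept direction and call in all 16. Over left-out libraries, 6 to 7 members and 9005 to 9960 of all genes were called, against 10016 genes with every library. Fto, near 0, changed sign with DESeq2 size factors (0.0092), no filter (0.040), the DESeq2 Wald test (0.039) and ribosomal RNA left out (0.0047), the last chosen after seeing the data, and ranged from -0.072 to 0.059 over left-out libraries. Ythdc1 was 1.23 with coding transcripts alone. Over left-out libraries Ythdf3-202 ranged from -0.0094 to 0.26 and Fto-201 from -0.012 to 0.13. Members with changed usage were 1 with no filter and 0 to 2 over left-out libraries. Of all genes, 1562 to 1803 had changed usage over left-out libraries, against 2081 with every library. By TPM, 5 members had a share shift in place of 3, with no count over all genes given here to set beside it. By estimated counts over left-out libraries, 2 to 3 members and 1949 to 2160 of all genes had one. At 5 points 2894 of all genes had one, against 1846 at 10 points. Exact chains in KO native RNA were found for 8 members by FLAIR and 8 with all introns annotated, against 5. With all annotated targets, 7752 genes were higher and 5080 lower in WT ladder than WT standard libraries, against 4967 and 4895. Replicate numbers did not pair the samples: correlations of same-numbered deviations lay between -0.023 and 0.054. With a replicate block 7 members were called between genotypes, and 8, all but Fto and Ythdc2, between library types (replicates 1 to 3). Between genotypes Igf2bp1 was below the filter. The cause of these changes was not tested.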
